A study of Mus musculus with 9 samples.

Results

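A set of 39 genes of DNA replication and mitosis was followed in mouse brown fat cells treated with 1 of 2 compounds. They were taken by their symbols as a fixed list of 39 names, with 1 transcript cluster per symbol (the one with the highest mean over all arrays), and all 39 were measured among 30860 genes. The cells were C57BL/6 brown fat cells in culture, described as fully differentiated, and the groups were 10 µM AM80 for 8 h, 10 µM AM73 for 8 h, and DMSO, the solvent, for 8 h. The series title calls the compounds chemical activators of PPARGC1a1, a form of a coactivator that drives thermogenic and mitochondrial genes. Each group held 3 Affymetrix whole-transcript arrays, 9 in all, made from total RNA. The labels call the replicates technical and do not say whether they came from separate wells, so p-values measure only the spread between these arrays. Values are log2 expression values, differences are log2 changes, and a gene was called at a limma adjusted p under 0.05 (Benjamini-Hochberg over all 30860 genes).

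A cell that copies its genome first loads the MCM helicase onto origins with the help of Cdc6 and Cdt1, under E2F control, and then makes nucleotides and slides polymerases along DNA on the clamp Pcna. Cyclins switch on their kinases in turn, and at mitosis Cdk1, the Aurora kinases and Plk1 drive spindle assembly, while Bub1 and its partners check that chromosomes are attached. Fat cells are made from dividing precursors that leave the cell cycle as they mature, so these genes are usually read as a sign of cells that still cycle. In RNA from whole cultures, fewer cycling cells and less RNA of a gene per cycling cell cannot be told apart.

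The cell type labels were checked against marker genes. The mean over 6 fat cell markers lay between 10.5 and 10.65 on the 9 arrays, and that over 6 brown fat markers between 5.72 and 6.51. The brown fat markers were uneven. With DMSO the group means were 8.44 for Elovl3, 7.55 for Cox7a1 and 7.06 for Ppargc1a. They were only 3.97 for Ucp1, 4.14 for Cidea and 4.45 for Prdm16. Single markers moved in opposite directions with AM80 against DMSO: Pparg (-0.91), Lpl (-0.56) and Ppargc1a (-1.66) fell, while Ucp1 (1.93) and Cox7a1 (1.13) rose, with limma adjusted p between 0.00237 and 0.0159. With AM73, Ucp1 was the one marker called against DMSO, at 2.16 (adjusted p = 0.0256). Markers of macrophages averaged 2.58 to 2.86, those of endothelial cells 2.5 to 3.0 and those of skeletal muscle 2.68 to 3.4, near the median of all genes on an array (2.75 to 2.89). The macrophage marker Cd68 lay above that median, with group means of 4.05 to 4.44. So did the muscle actin Acta1, with group means of 3.56 to 4.76. Acta1 was called, at 0.90 higher with AM80 than with DMSO (limma adjusted p = 0.00246). The 8 preadipocyte and fibroblast markers averaged 5.1 to 5.49 with AM80, 5.19 to 5.43 with AM73 and 5.18 to 5.37 with DMSO. Of these, 5 lay well above the array median, with group means of 10.58 to 11.06 for Vim, 7.70 to 8.38 for Ly6a, 5.89 to 6.51 for Col1a1, and 4.66 to 4.80 for Pdgfra and Pdgfrb, while Dlk1, Cd34 and Thy1 had group means between 2.42 and 2.79. Vim was called with AM80 (0.48 higher than DMSO, adjusted p = 0.0252; its sign turns when arrays are scaled to poly-A spike-in controls), the other 7 were not called in that comparison, and what part such cells have in the results below was not tested.

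With AM80 the module split in both directions, and with AM73 no member was called. Against DMSO, 12 of 39 members fell with AM80 and 8 rose, while 19 were not called. The background was 7.04% of all genes lower and 6.90% higher, or 13.9% either way. Among the brighter genes alone (mean above the 40th percentile), 23 members were called, beside 26.7% of such genes. The AM80 arrays lay wholly below the DMSO arrays for 12 members and wholly above for 14, beside 10.6% and 14.9% of all genes. Of the 20 calls, 10 were lost in at least 1 of the 9 fits that each left out 1 array: Aurkb, Ccna2, Ccnb1, Ccne1, Ccne2, Cdt1, Cenpf, Mcm5, Mcm7 and Tpx2. The falls were the larger changes, from 1.53-fold for Ccne2 to 4.66-fold for Mki67, and the rises ran from 1.34-fold for Aurkb to 1.65-fold for Cdca8. The median change of the 39 members was -0.04, beside 0.037 for all genes. When the deposited values, already quantile-normalized, were shifted further by 1 offset per array to match the poly-A spike-in controls, every change against DMSO moved by -0.84. No member was then called higher, the 8 rises turned to values between -0.41 and -0.12, and all 19 positive differences among the members turned negative, called or not, beside a median of -0.803 over all genes. The 12 falls kept their sign. The rises are therefore rises relative to the other genes of these arrays.

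**Figure D1:**
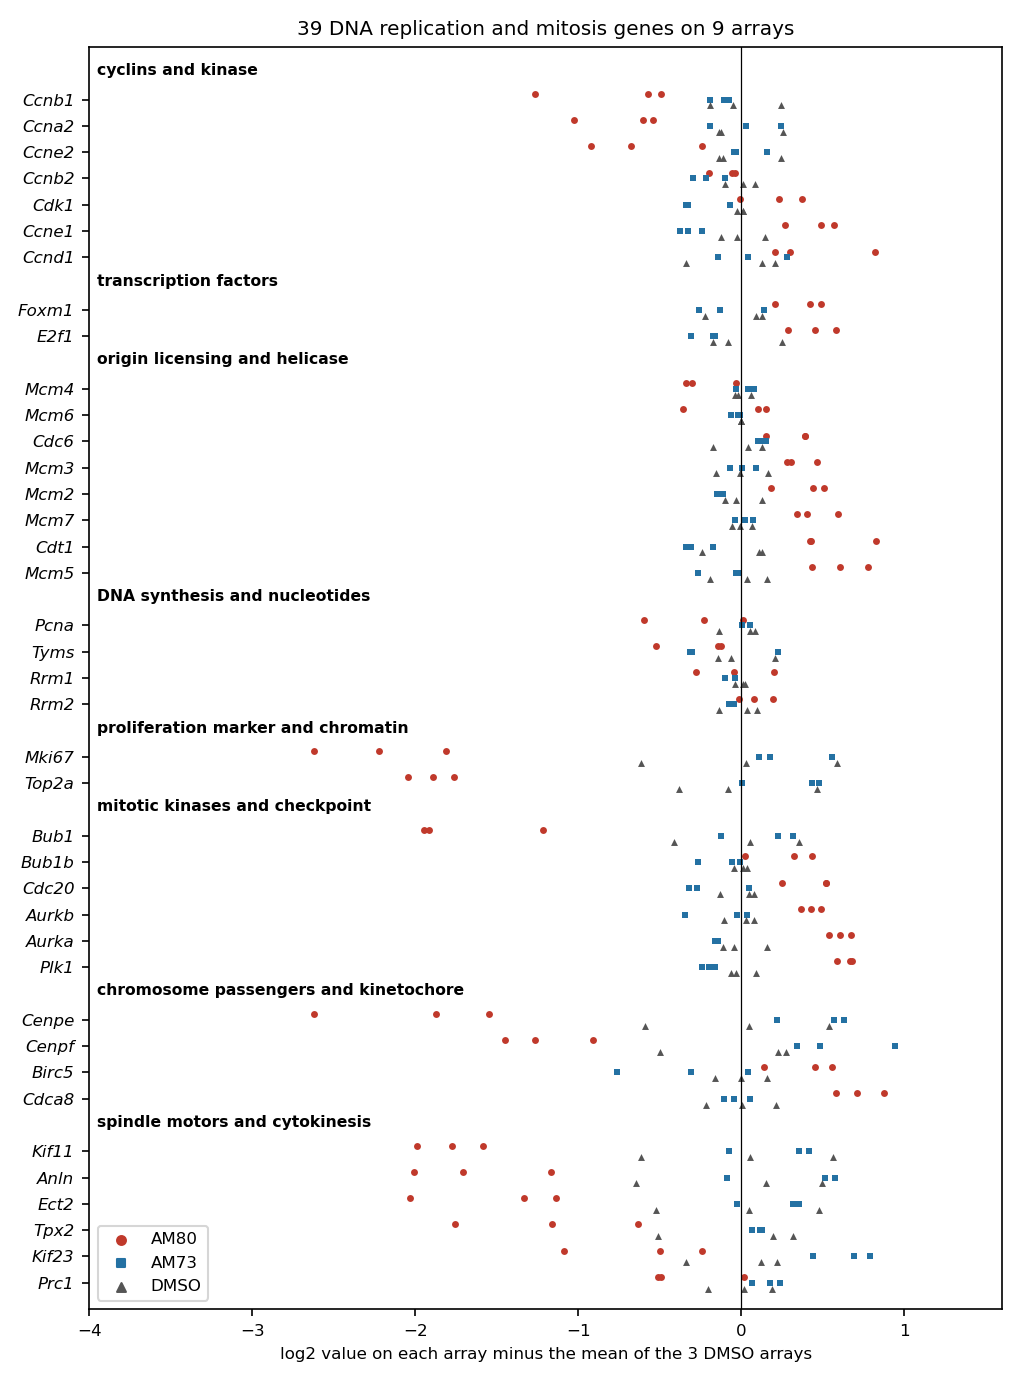
Value of each of the 39 genes on each array minus the mean of the 3 DMSO arrays (log2), grouped by role, with circles for AM80, squares for AM73 and triangles for DMSO. AM80 circles lie left of zero for Mki67 and Cenpe (mean changes -2.22 and -2.01) and right of it for Plk1, Aurka and Cdca8, while no gene is called for the AM73 squares; with poly-A scaling no gene is called higher.

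Promoter sequence was set beside the calls for the genes whose RefSeq window (GRCm38.p6) was at hand, 32 of 39 members with 35 windows of 300 bases, running from 250 bases before the gene's start to 50 after it. The motifs were searched on both strands: the cell cycle homology region (CHR) as TTTGAA or TTCGAA, the E2F motif as TTTGGCGC, TTTCGCGC, TTTCCCGC or TTTGCCGC, and CCAAT. A CHR was present in 57.1% of member windows and 19.2% of all 32851 windows. E2F motifs were present in 7 of the 35 member windows and in 2.26% of all windows, and CCAAT in 80.0% of member windows and 37.4% of all. Promoters are shown for the members with a window that had the 2 largest falls with AM80, Mki67 and Cenpe, and the 2 largest rises, Cdca8 and Plk1, with Mcm5 added, after its letters were seen, as a gene that rose and has E2F motifs. Capitals mark the motifs, read 5′ to 3′ on the gene's strand.
Mki67: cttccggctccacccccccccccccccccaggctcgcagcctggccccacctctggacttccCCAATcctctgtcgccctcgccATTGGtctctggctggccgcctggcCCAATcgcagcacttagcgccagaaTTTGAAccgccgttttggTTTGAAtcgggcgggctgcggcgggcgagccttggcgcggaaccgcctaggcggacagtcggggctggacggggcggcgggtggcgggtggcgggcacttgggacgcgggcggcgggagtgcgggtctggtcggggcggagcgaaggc
Cenpe: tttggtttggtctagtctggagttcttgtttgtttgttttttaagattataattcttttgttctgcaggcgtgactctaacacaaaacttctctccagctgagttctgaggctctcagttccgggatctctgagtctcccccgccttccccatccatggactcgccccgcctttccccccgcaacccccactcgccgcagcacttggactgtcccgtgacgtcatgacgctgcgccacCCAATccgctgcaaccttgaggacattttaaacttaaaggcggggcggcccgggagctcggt
Cdca8: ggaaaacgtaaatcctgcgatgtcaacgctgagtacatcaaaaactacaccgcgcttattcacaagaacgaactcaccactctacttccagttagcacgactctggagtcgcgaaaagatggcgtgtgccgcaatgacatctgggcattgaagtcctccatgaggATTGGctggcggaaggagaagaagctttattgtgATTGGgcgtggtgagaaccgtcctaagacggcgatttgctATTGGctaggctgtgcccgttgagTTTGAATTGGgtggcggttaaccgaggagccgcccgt
Plk1: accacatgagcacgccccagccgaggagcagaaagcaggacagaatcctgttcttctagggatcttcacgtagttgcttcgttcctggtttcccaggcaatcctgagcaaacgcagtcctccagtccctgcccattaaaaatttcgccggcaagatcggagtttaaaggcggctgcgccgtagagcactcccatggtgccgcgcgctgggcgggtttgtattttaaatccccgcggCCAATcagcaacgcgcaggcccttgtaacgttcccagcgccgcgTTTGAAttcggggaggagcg
Mcm5: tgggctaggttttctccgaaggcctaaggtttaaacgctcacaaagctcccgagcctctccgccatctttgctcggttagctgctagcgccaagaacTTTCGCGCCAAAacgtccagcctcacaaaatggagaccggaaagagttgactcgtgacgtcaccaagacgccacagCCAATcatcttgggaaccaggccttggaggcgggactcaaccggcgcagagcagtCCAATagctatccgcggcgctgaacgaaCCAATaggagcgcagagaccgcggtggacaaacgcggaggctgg

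The Mki67 window (chr7:135716330-135716629, minus strand) holds 2 CHR motifs, 116 and 98 bases before the start, and 3 CCAAT motifs. The Cenpe window (chr3:135212313-135212612, plus strand) has no CHR, no E2F motif and 1 CCAAT. The Cdca8 window (chr4:124936868-124937167, minus strand) has 1 CHR, starting 14 bases after the gene's start and overlapping 1 of its 4 CCAAT motifs. Plk1 (chr7:122159185-122159484, plus strand) has 1 CHR, starting 31 bases after the gene's start, and 1 CCAAT. Mcm5 (chr8:75109259-75109558, plus strand) has no CHR and 2 overlapping E2F motifs, 153 and 149 bases before the start, with 3 CCAAT motifs. The 12 members that fell with AM80 have 10 windows from 9 genes, with none for Ccna2, Ccne2 and Tpx2. The 8 that rose have 8 windows from 7 genes, with none for Aurkb. Ect2, which fell, and Prc1, not called, each have 2 overlapping windows that hold the same CHR matches, and Mcm7 has 2 separate windows. Among members that fell with AM80, 8 of 10 windows held a CHR, 0 held an E2F motif and 9 held CCAAT. Among members that rose, 4 of 8 held a CHR, 3 an E2F motif and 6 CCAAT. Among members not called, 8 of 17 held a CHR, 4 an E2F motif and 13 CCAAT. A match is a description of these letters, not a site or a cause.

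Mki67, the proliferation marker that coats mitotic chromosomes, and Top2a, the topoisomerase that untangles replicated DNA, both fell. Mki67 read 6.05, 6.45 and 6.86 with AM80, 8.85, 8.78 and 9.23 with AM73, and 9.26, 8.70 and 8.06 with DMSO. The AM80 arrays lay below every other array, and the DMSO arrays spanned more than the AM73 ones. Mki67 changed by -2.22 against DMSO (SE 0.30, adjusted p = 0.00262) and by -2.50 against AM73 (adjusted p = 0.000882). Top2a read 5.91, 6.06 and 6.19 with AM80, 7.96, 8.39 and 8.43 with AM73, and 8.42, 7.87 and 7.57 with DMSO. Its AM80 arrays were close together and far below the rest, with changes of -1.90 against DMSO (SE 0.21, adjusted p = 0.00197) and -2.21 against AM73 (adjusted p = 0.000648).

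Of the spindle motor and cytokinesis genes, 4 of 6 were lower with AM80 than with DMSO and none was higher. Kif11, the kinesin that pushes spindle poles apart, read 5.23, 5.44 and 5.63 with AM80, 7.14, 7.57 and 7.63 with AM73, and 7.78, 7.27 and 6.60 with DMSO. The groups with and without AM80 did not overlap, and Kif11 changed by -1.78 against DMSO (SE 0.27, adjusted p = 0.00357). Ect2, the exchange factor that switches on RhoA at the cell equator, read 6.82, 7.52 and 7.72 with AM80, 8.83, 9.17 and 9.21 with AM73, and 9.33, 8.90 and 8.33 with DMSO (change -1.50 against DMSO, SE 0.28, adjusted p = 0.00845). Anln, which scaffolds the contractile ring, read 5.38, 5.68 and 6.22 with AM80, 7.30, 7.90 and 7.96 with AM73, and 7.88, 7.54 and 6.74 with DMSO (change -1.63, SE 0.31, adjusted p = 0.00933). In both, DMSO replicate 3 was the DMSO array nearest to AM80. Tpx2, an activator of Aurora A, changed by -1.18 (adjusted p = 0.021). Kif23, a motor of the central spindle, had a difference of -0.61 from DMSO (adjusted p = 0.113) and fell by 1.25 against AM73 (adjusted p = 0.00396). Prc1, a microtubule bundler, was not called, at -0.33 (adjusted p = 0.249).

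Mitotic kinases and checkpoint genes split, with 3 of 6 higher and 1 lower. Plk1, a kinase of mitotic entry and spindle assembly, read 8.61, 8.70 and 8.69 with AM80, 7.78, 7.82 and 7.86 with AM73, and 7.96, 7.99 and 8.11 with DMSO. Each group was tight and the AM80 group lay above both others (change 0.65 against DMSO, SE 0.10, adjusted p = 0.00343). Aurka, the spindle pole kinase, read 8.49, 8.56 and 8.42 with AM80, 7.72, 7.72 and 7.74 with AM73, and 7.77, 7.84 and 8.04 with DMSO, and rose by 0.61 (SE 0.10, adjusted p = 0.00641). Aurkb, the kinase of the chromosomal passenger complex, rose by 0.43 (adjusted p = 0.0456). Bub1, a spindle checkpoint kinase, went the other way, at 4.20, 4.90 and 4.17 with AM80, 5.99, 6.34 and 6.43 with AM73, and 6.47, 6.17 and 5.70 with DMSO. No AM80 array of Bub1 reached any other array, and the change was -1.69 against DMSO (SE 0.24, adjusted p = 0.00321). Bub1b, its checkpoint relative, at 0.26 (adjusted p = 0.256), and Cdc20, which activates the anaphase ubiquitin ligase, at 0.43 (adjusted p = 0.0646), were not called.

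Of the 4 kinetochore and passenger genes, 2 fell, 1 rose and 1 was not called. Cenpe, a kinetochore motor that carries chromosomes to the spindle equator, read 3.77, 4.52 and 4.84 with AM80, 6.61, 7.02 and 6.96 with AM73, and 6.93, 6.44 and 5.80 with DMSO. The highest AM80 array stayed below the lowest DMSO array, and Cenpe changed by -2.01 (SE 0.32, adjusted p = 0.0043). Cenpf, another kinetochore protein, read 4.16, 3.98 and 4.52 with AM80, 5.77, 5.91 and 6.37 with AM73, and 5.70, 5.65 and 4.93 with DMSO. Cenpf changed by -1.21 against DMSO (adjusted p = 0.0104) and -1.80 against AM73 (adjusted p = 0.00116). Cdca8, the passenger subunit borealin, read 6.75, 6.59 and 6.46 with AM80, 5.83, 5.93 and 5.77 with AM73, and 5.88, 5.66 and 6.09 with DMSO. All 3 AM80 arrays were above all others, and Cdca8 rose by 0.72 (SE 0.13, adjusted p = 0.00798). Birc5, the passenger subunit survivin, was not called against DMSO, at 0.38 (adjusted p = 0.281).

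**Figure D2:**
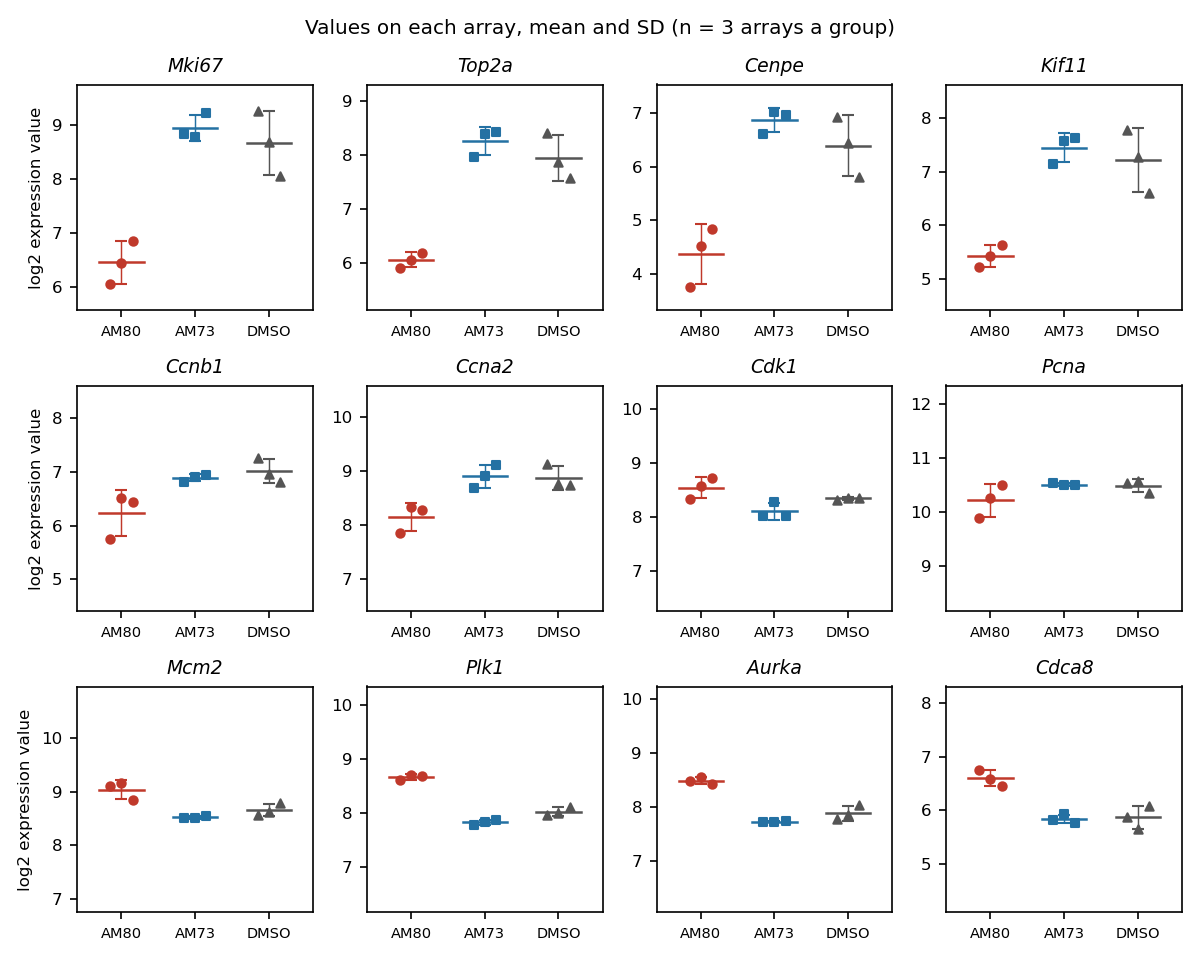
log2 values of 12 of the genes on each array, each panel spanning the same range of log2 units, with the group mean as a line and the SD as an error bar (n = 3 arrays a group; AM80 left, then AM73, then DMSO). Mki67, Top2a, Cenpe and Kif11 are low on all 3 AM80 arrays, Plk1, Aurka and Cdca8 are high on them, and Pcna overlaps between groups; with arrays scaled to poly-A controls Plk1, Aurka and Cdca8 would not be high.

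Of the genes that license origins, 3 of 8 rose and none fell. Mcm2, a helicase subunit, read 9.10, 9.17 and 8.84 with AM80, 8.51, 8.51 and 8.55 with AM73, and 8.56, 8.63 and 8.79 with DMSO. Its AM80 arrays lay above both other groups, with a difference of 0.38 from DMSO (SE 0.12) that missed the threshold (adjusted p = 0.0624). The helicase subunits Mcm5 and Mcm7 rose by 0.61 (adjusted p = 0.017) and 0.45 (adjusted p = 0.02), and Cdt1, which loads the helicase, rose by 0.56 (adjusted p = 0.0339). The other helicase subunits Mcm3, Mcm4 and Mcm6 and the loader Cdc6 had differences between -0.22 and 0.35 and were not called.

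DNA synthesis genes gave 0 calls of 4. Pcna read 9.89, 10.26 and 10.50 with AM80, 10.54, 10.49 and 10.49 with AM73, and 10.54, 10.57 and 10.35 with DMSO. The groups overlapped, with a difference of -0.27 (95% interval -0.61 to 0.07, adjusted p = 0.322). Rrm1 and Rrm2, the subunits of ribonucleotide reductase, had differences of -0.04 and 0.09, and Tyms, which makes thymidylate, one of -0.26. The widest interval of these 3 was that of Tyms, -0.66 to 0.14.

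Among cyclins and their kinase, 3 fell and 1 rose of 7. Ccnb1, the cyclin of mitotic entry, read 5.75, 6.52 and 6.44 with AM80, 6.82, 6.91 and 6.94 with AM73, and 7.26, 6.96 and 6.82 with DMSO (change -0.78 against DMSO, SE 0.20, adjusted p = 0.0292). Ccne1, a cyclin of S phase entry, read 9.0, 8.92 and 8.70 with AM80, 8.06, 8.19 and 8.11 with AM73, and 8.31, 8.41 and 8.58 with DMSO (change 0.44, SE 0.12, adjusted p = 0.0356). Neither gene's AM80 arrays overlapped the DMSO arrays, and the directions were opposite. Ccna2, the cyclin of S phase and early mitosis, changed by -0.72 (adjusted p = 0.0227), and Ccne2, the second E cyclin, by -0.61 (adjusted p = 0.0481). Cdk1, the kinase that Ccnb1 activates, read 8.34, 8.58 and 8.72 with AM80, 8.01, 8.28 and 8.02 with AM73, and 8.32, 8.36 and 8.36 with DMSO. AM80 and DMSO overlapped for Cdk1 (difference 0.20, adjusted p = 0.396), while against AM73 it was 0.44 higher (adjusted p = 0.0345). Ccnb2, the other B cyclin, was not called, at -0.10 (adjusted p = 0.675). Ccnd1, the D cyclin that links growth factors to the cycle, read 3.28, 3.89 and 3.37 with AM80, 3.35, 2.93 and 3.11 with AM73, and 3.28, 3.20 and 2.73 with DMSO, near the median of all genes, and was not called (adjusted p = 0.207).

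Neither transcription factor was called against DMSO. E2f1, which switches on replication genes, read 6.91, 6.62 and 6.78 with AM80, 6.17, 6.02 and 6.16 with AM73, and 6.16, 6.25 and 6.58 with DMSO. Its AM80 arrays lay above all others, with a difference of 0.44 from DMSO (adjusted p = 0.0587) and a rise of 0.65 over AM73 (adjusted p = 0.00771). Foxm1, a driver of mitotic genes, read 6.29, 6.57 and 6.5 with AM80, 5.82, 5.95 and 6.22 with AM73, and 5.86, 6.21 and 6.17 with DMSO. The AM80 arrays were above all others here too. The difference of Foxm1 was 0.37 from DMSO (adjusted p = 0.135) and 0.46 from AM73 (adjusted p = 0.0554).

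With AM73 none of the 39 members was called against DMSO (limma), where 0.120% of all genes were (0.104% higher, 0.0162% lower). At an unadjusted p under 0.05 there were 3 members, Ccne1 at -0.31, Cenpf at 0.59 and Kif23 at 0.64, a share of 7.69% beside 7.66% of all genes. An ordinary linear model and the authors' deposited q-value also gave 0. The AM73 arrays lay wholly above the DMSO arrays for 2 members and wholly below for 6, beside 5.71% and 6.87% of all genes. Differences ran from -0.34 for Birc5 to 0.64 for Kif23, and with poly-A scaling each would be 0.29 higher, which turns 18 of the 20 negative ones positive. The 95% intervals had half-widths between 0.21 and 0.71, and 35 of 39 lay within a change of 1 log2 unit either way. For Mki67 the interval was -0.38 to 0.94, and for Top2a -0.17 to 0.78.

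The compounds, given at the same dose and time, were compared directly in 1 test per gene, with p-values adjusted over all genes. AM80 was higher than AM73 for 13 members and lower for 13, beside 9.92% and 9.22% of all genes. All 8 rises and all 12 falls against DMSO were among them; the same AM80 arrays enter both comparisons. Added to the rises were E2f1, Mcm2, Cdk1, Cdc20 (0.61, adjusted p = 0.0107) and Birc5 (0.73, adjusted p = 0.029), and to the falls Kif23. With arrays centred on their medians, the split over all genes was 2209 higher and 3215 lower in place of 3061 and 2846; with poly-A scaling it was 7 and 28175, and no member was called higher. The AM80 arrays lay wholly above the AM73 arrays for 17 members and wholly below for 14, beside 18.9% and 12.7% of all genes.

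The members that fell with AM80 were longer genes. Their genomic span, from first to last base in RefSeq, ran from 7.75 to 61.0 kb with a median of 38.6 kb. Members that rose spanned 5.12 to 19.0 kb (median 9.96 kb), and those not called 3.9 to 43.4 kb (median 15.3 kb). Of 15 members of 20 kb or more, 9 fell and 0 rose, and of 24 shorter members 3 fell, the cyclins Ccna2, Ccnb1 and Ccne2, and 8 rose. The 20 kb cut lies just above the longest member that rose, so the 0 depends on where it was placed. At the same cut, of 89 longer genes among other cell cycle genes, 40 fell and 10 rose. Of the 61 shorter ones, 9 fell and 17 rose. Across members, Spearman's rho of the AM80 change with span was -0.58 (n = 39 genes, which share the same arrays and are not independent), beside -0.54 for the 150 other cell cycle genes described below and -0.27 for the 18512 genes with a mean above the 40th percentile. Among those brighter genes, of the ones of 40 kb or more 25.0% were lower with AM80 and 5.24% higher, with a median change of -0.10. Of the ones of 20 to 40 kb, 15.3% were lower and 10.8% higher, and of those of 10 to 20 kb 8.52% and 14.1%. Of the ones under 10 kb, 3.13% were lower and 13.9% higher. Of the 7 members over 40 kb, 6 fell, with a median change of -1.50, and the other was Bub1b. For AM73 against the same DMSO arrays, rho was 0.60 across members, 0.44 across the other cell cycle genes and 0.28 across the brighter genes, with no difference called in either list.

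**Figure D3:**
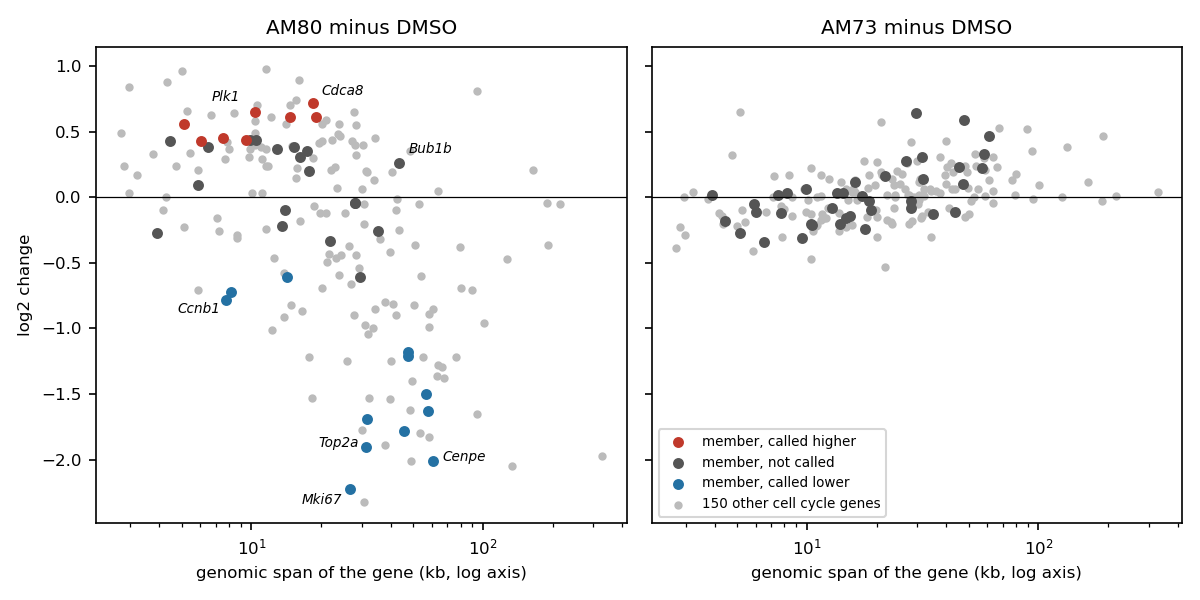
log2 change against genomic span (kb, log axis) for AM80 minus DMSO (left) and AM73 minus DMSO (right), with members coloured by call and 150 other cell cycle genes in grey. On the left the members called lower reach spans of 61.0 kb and those called higher stay at 19.0 kb or less (none would be called higher with poly-A scaling); on the right no member is called.

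The arrays of a group also differed in these genes. Over the 12 members that fell, the median relative to the DMSO mean was -1.95, -1.39 and -1.15 on the AM80 arrays, -0.03, 0.27 and 0.39 on the AM73 arrays, and 0.41, 0.05 and -0.51 on the DMSO arrays. DMSO replicate 3 was the lowest DMSO array for 11 of the 12, AM80 replicate 1 the lowest AM80 array for 10, and AM73 replicate 1 the lowest AM73 array for 11. Over the 8 members that rose, DMSO replicate 3 was the highest DMSO array for all 8. AM80 replicate 1 was the highest AM80 array for 5 of them, and AM73 replicate 1 the lowest AM73 array for 5. The same 3 arrays had the highest median poly-A spike-in signal of their groups, 5.85 on AM80 replicate 1, 4.68 on AM73 replicate 1 and 4.83 on DMSO replicate 3. The poly-A mean of the AM80 group was 5.50 ± 0.33, that of the AM73 group 4.37 ± 0.30 and that of the DMSO group 4.66 ± 0.16 (SD over 3 arrays). Antigenomic probe sets, which match no mouse gene, moved too: the 6 brightest had a mean of 5.91 ± 0.21 for AM80, 5.04 ± 0.49 for AM73 and 5.58 ± 0.37 for DMSO. With the mean of the 6 brightest as a covariate, 8 members were called lower and 3 higher against DMSO, beside 4.81% and 2.97% of all genes. Against AM73, 0 of 39 members and 0 of all genes were called. That mean was 5.69 to 6.12 on the AM80 arrays and 4.52 to 5.48 on the AM73 arrays, without overlap. Probe signal and compound therefore cannot be fully told apart in that comparison. With the covariate all 12 falls and all 8 rises against DMSO kept their sign, as did all 13 falls and all 13 rises against AM73.

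**Figure D4:**
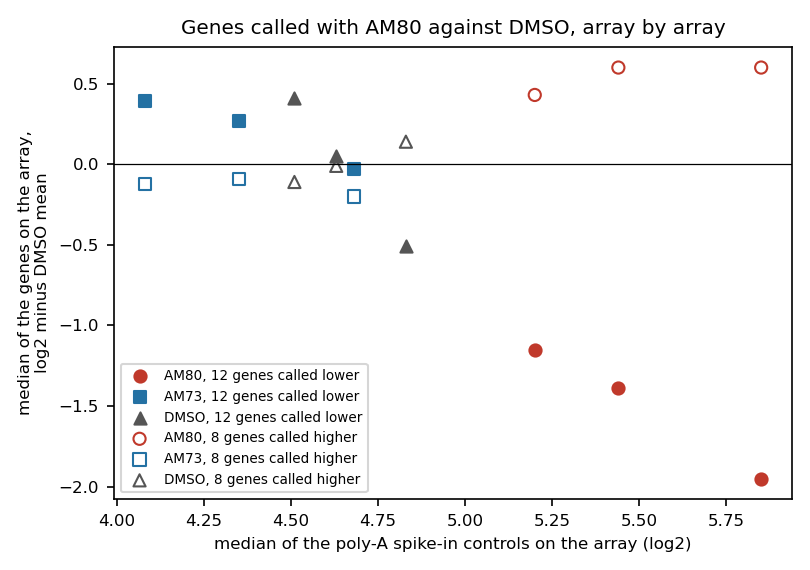
Median over the 12 members called lower with AM80 (filled) and the 8 called higher (open) on each array, in log2 minus the DMSO mean, against the median of the poly-A spike-in controls on that array (log2). In each group the array with the highest poly-A signal has the lowest filled point; the open AM80 points would lie below zero with poly-A scaling.

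The array names end in a number that may be a plate column, which no label explains. All AM80 arrays carry a 5, with AM73 replicate 2 and DMSO replicate 2, and the other 4 arrays a 7. Within 5 alone, DMSO replicate 2 is the only DMSO array, so calls there cannot be read. The 12 falls had values from -2.25 to -0.48 there and the 8 rises from 0.40 to 0.94. For every one of these members the AM80 arrays lay wholly beyond all DMSO arrays. Their signs within 5 were therefore fixed beforehand and do not test the number. With the number as a term in the fit, 7 lower and 3 higher members were called, beside 3.44% and 1.22% of all genes. The authors' deposited q-value called 0 members against DMSO, where it called 5 of all genes.

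Of 150 other cell cycle genes, 49 fell and 27 rose with AM80 against DMSO, beside 7.04% and 6.90% of all genes. With AM73 against DMSO 0 of the 150 were called, beside 0.120% of all genes. The smallest adjusted p among falls belonged to Smc2 (-2.01), Rfc1 (-1.22), Mastl (-1.54), Pola1 (-1.97), Aspm (-1.25) and Ncapg (-2.32), with adjusted p between 0.00191 and 0.00256. Smc2 and Ncapg are condensin subunits, Rfc1 is the large clamp loader subunit, Mastl is a mitotic kinase, Pola1 is the catalytic subunit of polymerase alpha and Aspm is a spindle pole protein. Among rises it belonged to Chaf1a (0.65), Rfc2 (0.74), Ube2s (0.88), Tk1 (0.70), Ccnd3 (0.81) and Cdkn2d (0.84), with adjusted p between 0.00516 and 0.0083. Chaf1a assembles chromatin, Rfc2 is a small clamp loader subunit, Ube2s works with the anaphase ubiquitin ligase, Tk1 makes thymidine phosphate and Ccnd3 is a D cyclin. Against AM73, 53 (35.3%) fell and 42 (28.0%) rose with AM80, beside 9.22% and 9.92% of all genes. Smc2, Aspm, Rfc1, Mastl, Smc4 and Rb1 led the falls, and Rfc2, Tk1, Cdkn1c, Ube2s, Pkmyt1 and Spc24 the rises. Under poly-A scaling no gene of this list was called higher in either comparison.

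The brakes on the cycle were also split. Rb1, the retinoblastoma pocket protein, read 5.37, 5.28 and 6.27 with AM80, 8.01, 8.10 and 8.11 with AM73, and 8.06, 7.88 and 7.13 with DMSO, a change of -2.05 (adjusted p = 0.00304). Its AM80 arrays were the lowest of all 9. Rbl1 changed by -0.89 (adjusted p = 0.00488) while Rbl2, at -0.60, was not called (adjusted p = 0.0932). Of 7 CDK inhibitors, Cdkn2d rose by 0.84 (adjusted p = 0.0083) and Cdkn1c by 0.49 (adjusted p = 0.0239), relative to other genes. Cdkn1a (0.31), Cdkn1b (-0.23), Cdkn2a (0.43), Cdkn2b (0.24) and Cdkn2c (0.21) were not called.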

How the data were processed

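RNA of 9 arrays was analysed from the log2 values the authors deposited. Per the file headers these log2 values came from Affymetrix Expression Console 1.41 (RMA with quantile normalization and summary by median polish), with NetAffx build 35 on mm10, and 100 ng of RNA was labelled per the labels. The authors' deposited q-value columns follow a Student's t-test per the file headers, and how the q-value was made is not stated there. Of 41345 features, 30860 genes were kept, 1 cluster per symbol (the brightest). Members, roles, lists and motifs were chosen with earlier results of these data known. All 9 arrays entered 1 fit with limma 3.58.1 (lmFit and eBayes, R 4.3.3, with data.table, version 1.17.8), two-sided, with Benjamini-Hochberg adjustment over all genes and a threshold of 0.05. The steps were tested on simulated data. Precision is limited by there being 3 arrays a group. Values on every array are given for the 10 or fewer members of lowest adjusted p per comparison and for Mki67, Top2a, Cdk1, Ccnb1, Ccne1, Ccnd1, Pcna, Mcm2, E2f1 and Foxm1; of the other cell cycle genes, up to 6 in each direction and every CDK inhibitor and pocket protein are named. Alternatives covered filters, normalization, covariates, moderation, array weights, a fold minimum, the deposited q-value and leaving out each array. Promoter windows and gene spans came from RefSeq (GRCm38.p6). Python 3.11.15, pandas 2.3.3 and matplotlib 3.10.9 were used for summaries and figures.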

Additional observations from a re-analysis of the deposited data

How the results depend on the processing

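Outside poly-A scaling, calls with AM80 depended on the fit more than directions did. With poly-A scaling all 8 rises against DMSO turned negative, as described below, while the 12 falls kept their sign. Within plate number 5, DMSO replicate 2 and AM73 replicate 2 are the only arrays of their groups, so counts of calls there cannot be read. Against DMSO, the 20 members called became 11 with background probes as a covariate, 11 with only the groups compared, 10 with the plate number as a term, 0 within plate number 5, 9 by an ordinary linear model and 0 by the deposited q-value. The 76 other cell cycle genes became 49, 45, 30, 0, 39 and 0 in those settings, and the 4302 of all genes became 2403, 2086, 1440, 0, 1642 and 5. With a replicate block 13 members were called. Deviations of same-numbered AM80 and DMSO arrays from their group means correlated at -0.198, -0.016 and -0.298, and those of AM80 and AM73 at 0.032, 0.004 and 0.068. No pairing by replicate number shows in these values, but they cannot exclude one. Against AM73, the 26 members and 95 other genes called both became 0 with background probes as a covariate and 0 within plate number 5. With the plate number as a term, 61 other genes were called. All genes called, 5907, became 0 with the covariate, 3513 with the plate number as a term, 0 within 5 and 3475 by the deposited q-value. For AM73 against DMSO the 37 of all genes became 11 (covariate), 2 (only groups compared), 6 (replicate block), 18 (plate term), 0 (within 5), 0 (within 7), 4 (ordinary linear model), 107 (array weights) and 3 (deposited q-value), with 0 members in each. Leaving out an array gave 10 to 22 members, 37 to 84 other genes and 1740 to 5226 of all genes against DMSO. The same step gave 21 to 26, 68 to 96 and 4164 to 6453 for AM80 against AM73, and 0, 0 and 0 to 37 for AM73 against DMSO. The cause of these shifts was not tested. Of the 20 members, 10 were called in all 9 such fits; the count was 10 without DMSO replicate 1, 11 without DMSO replicate 2, 12 without AM80 replicate 1 and 13 without AM80 replicate 2.

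Poly-A scaling was applied on top of the quantile-normalized values and gives every gene of an array the same offset, so limma pooled the spread with 118 prior degrees of freedom, against 3.75 otherwise, and its p-values there are too small to be read. An ordinary linear model on the same values was added after seeing the data. All genes called were then 24222 with limma and 18123 with the added model against DMSO, 28182 and 27027 for AM80 against AM73, and 124 and 0 for AM73 against DMSO. Members were 22 and 19, all lower, against DMSO, and 30 and 25, all lower, against AM73. The median of all genes moved to -0.803 and -1.053 in the AM80 comparisons, as every change moved by -0.84 against DMSO and -1.13 against AM73. All 19 positive differences of members against DMSO and all 21 against AM73 turned negative, as did 63 of 67 and 67 of 68 of the other cell cycle genes, uncalled ones included. Against DMSO the exceptions were Pold1, Spc24, Ube2s and Fzr1, and against AM73 Spc24. Among the genes named by rule, those called in either fit whose signs turned against DMSO were Aurka -0.23, Aurkb -0.41, Ccnd3 -0.03, Ccne1 -0.40, Cdca8 -0.12, Cdk1 -0.64, Cdkn1a -0.53, Cdkn1c -0.35, Cdkn2a -0.41, Cdkn2b -0.60, Cdkn2c -0.63, Cdkn2d -0.00, Cdt1 -0.28, Chaf1a -0.19, Mcm5 -0.23, Mcm7 -0.39, Plk1 -0.19, Rfc2 -0.10, Rrm2 -0.75, Tk1 -0.14; those against AM73 were Aurka -0.36, Aurkb -0.59, Birc5 -0.40, Bub1b -0.76, Ccnb2 -1.02, Ccnd1 -0.74, Ccne1 -0.37, Cdc20 -0.52, Cdc6 -0.94, Cdca8 -0.37, Cdk1 -0.68, Cdkn1a -0.88, Cdkn1c -0.25, Cdkn2a -0.40, Cdkn2c -0.51, Cdkn2d -0.29, Cdt1 -0.29, E2f1 -0.47, Foxm1 -0.67, Mcm2 -0.61, Mcm3 -0.79, Mcm5 -0.42, Mcm7 -0.70, Pkmyt1 -0.26, Plk1 -0.28, Rfc2 -0.18, Rrm1 -1.09, Rrm2 -0.99, Tk1 -0.17, Ube2s -0.05. All 12 falls against DMSO kept their sign and call in the added model (adjusted p 0.0319 to 0.034).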

Other observations

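Subunits of the Ndc80 complex, of the clamp loader and of DNA polymerase alpha with its primase moved in opposite directions with AM80 against DMSO. In the origin recognition complex some subunits fell and none was called higher. These complexes were picked after their values were seen, so the values are a description. In the Ndc80 complex, which ties kinetochores to microtubules, Ndc80 (-0.97), Nuf2 (-1.0) and Spc25 (-1.01) fell, while Spc24 rose by 0.96 (adjusted p = 0.0173, 0.0063, 0.00586 and 0.0107 by limma). Spc24 read 7.95, 7.66 and 7.17 with AM80, against 6.44, 6.59 and 6.86 with DMSO, and Spc25 read 5.79, 6.24 and 6.45 with AM80, against 7.32, 7.14 and 7.05 with DMSO. Spc24 spans 5.01 kb, Spc25 12.3 kb, Ndc80 30.8 kb and Nuf2 33.5 kb. In the clamp loader, Rfc1 (76.8 kb) changed by -1.22 and Rfc4 (13.8 kb) by -0.58 (adjusted p = 0.0377), and both fell, while Rfc2 (15.6 kb) and Rfc3 (8.39 kb) rose by 0.74 and 0.64. Rfc5, at 0.37, was not called (adjusted p = 0.0741).

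In the origin recognition complex, which marks where replication starts, Orc2 (-0.90), Orc3 (-1.62), Orc4 (-0.82) and Orc5 (-1.28) fell, all of 42.3 kb or more. Orc6, of 8.65 kb, at -0.31 (adjusted p = 0.142), and Orc1, of 40.3 kb, at 0.19 (adjusted p = 0.458), were not called. In DNA polymerase alpha with its primase, Pola1 (328 kb) and Prim1 (14.8 kb) fell by 1.97 and 0.82, Pola2 (23.7 kb) rose by 0.48 (adjusted p = 0.0263), and Prim2, of 216 kb, was not called, at -0.05 (adjusted p = 0.883). Spc25, Rfc4 and Prim1 are short genes that fell, and Prim2 and Orc1 are long genes that were not called. Orc1 had a DMSO mean of only 3.56, near the median of all genes, which leaves little room for a fall to show. The rises named here are relative to other genes and are not called with poly-A scaling, where Rfc2, Rfc3, Rfc5 and Pola2 turn negative and Spc24 stays positive.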
